A study of Mus musculus with 2 samples.

Results

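The genes described here encode secreted and membrane-bound metalloproteases and their tissue inhibitors in mouse urogenital sinus mesenchyme (UGM), the fetal stroma around the epithelium that gives rise to the prostate. They were chosen by name. Every gene whose symbol begins with Mmp, Adam or Timp and a number, or with Adamts, was taken where a probe set named that gene alone, which gave 70 genes of 18193 on the array. These comprised 28 Adam, 18 Mmp, 15 Adamts, 5 Adamtsl and 4 Timp genes. Male C57BL/6 mice at day 16 were the source of the cells, which were grown in RPMI 1640 with serum and Plasmocin, an antibiotic, before treatment. The T+E2 culture then received testosterone (12 nM) and estradiol-17β (120 pM) for 72 h in medium whose 5% serum had been stripped of steroids with charcoal. The untreated culture was kept for 72 h in the same medium without hormones, and each condition had 1 array. The sample titles carry 24 h, against 72 h in all other labels. The descriptions call the T+E2 cells nearly confluent and the untreated cells confluent, whereas the growth protocol gives 80% for both. Hormones and cell density therefore cannot be told apart if the descriptions hold.

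Matrix metalloproteases (Mmp) are zinc enzymes that cut collagens, laminins and other matrix proteins, and membrane-type members also activate other Mmp enzymes at the cell surface. Adam proteases are anchored in the membrane and release the outer parts of other membrane proteins, such as growth factor precursors and Notch receptors. Adamts proteases are secreted, bind to matrix and cut proteoglycans, procollagens and microfibril proteins. Adamtsl proteins share their ancillary domains but have no protease domain, and Timp proteins block Mmp enzymes and, in part, the others. In fetal mesenchyme, remodelling of matrix accompanies the growth of epithelial buds into the stroma.

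Values are intensities normalised by the authors, given as intensity or as its log2. A gene was called measured when it reached a log2 of 5 (intensity 32) on at least 1 array, and lower values were raised to 5 before a difference was taken. Differences are T+E2 minus untreated on the log2 scale. The arrays had 42.1% of probe sets at or above the floor with T+E2 and 42.9% in untreated cells, with median intensities of 6.12 with T+E2 and 7.60 in untreated cells. The 18 probe sets of hybridisation controls, spiked equally into both samples, differed by -0.25 to 0.09 (SD 0.12 across spikes). That spread covers hybridisation and not culture or RNA preparation, so no difference below can be set against the spread between cultures.

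The cells carried mesenchymal transcripts on both arrays. Of 11 mesenchymal markers, 10 were measured, and Thy1 was under the floor. The summed intensity of the list was 163168 with T+E2 and 149207 in untreated cells. Of 12 epithelial markers, Cdh1 and Trp63 were measured and the keratin genes and Epcam were under the floor. Cdh1 was at 190 with T+E2 and 41.4 in untreated cells (2.20), and Trp63 at 352 with T+E2 and 255 in untreated cells (0.47). The summed intensity of all 12 epithelial markers was 587 with T+E2 and 341 in untreated cells. Of 8 leukocyte markers, Lyz2 and Cd14 were measured, with Ptprc, Adgre1 and Csf1r under the floor. The summed intensity of the list was 479 with T+E2 and 1166 in untreated cells. The lower sum was that of Lyz2, at 369 with T+E2 and 1065 in untreated cells (-1.53). Cd14 lay on the other side, at 78.7 with T+E2 and 70.1 in untreated cells (0.17). One endothelial marker of 7 and 1 neural marker of the 4 on the array were measured, and none of 5 skeletal muscle markers. The part of these levels in the differences below was not tested.

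Of the 70 family members, 33 were measured (47.1%, against 56.4% of all genes), 32 on both arrays and Adamtsl1 with T+E2 only. All 37 others lay under the floor on both arrays, 35 of them under a log2 of 3 on both. Nearest to the floor among these were Adam8, a leukocyte-associated Adam gene, at 3.70 with T+E2 and 4.59 in untreated cells, and Adamts15 at 3.05 with T+E2 and 2.13 in untreated cells. Just above it stood Adam5 at 6.04 with T+E2 and 5.61 in untreated cells, and Adamts20 at 6.35 with T+E2 and 5.80 in untreated cells. Members without a measured level included the collagenase genes Mmp1a, Mmp1b, Mmp8 and Mmp13, the stromelysin genes Mmp3 and Mmp10, the matrilysin gene Mmp7 and the macrophage elastase gene Mmp12. Mmp17, Mmp20, Adamts3, Adamts7, Adamts8, Adamts18, Adamts19, Adamtsl2 and Timp4 were under the floor as well. The remaining unmeasured genes were Adam8 and 18 other Adam genes, many of them known from the testis, such as Adam2 and Adam3.

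Most measured members differed by less than 2-fold, and the largest differences lay in a few Adam, Adamts and Adamtsl genes. With T+E2, the genes past 2-fold on the high side were Adamtsl1, Adam12 and Adam19, and those on the low side were Adamts16 and Adamts10. Thus 3 of 33 members were higher at this fold (9.09%, against 4.96% of the 10267 measured genes) and 2 were lower (6.06%, against 4.01%), with 28 between. Adamtsl1 was measured only through the array where it is high. Among the 32 members measured on both arrays, 2 were higher (6.25%, against 4.67% of the 10009 genes measured on both) and 2 were lower (6.25%, against 3.86%). At 1.5-fold, 8 members were higher (24.2%, against 17.1%) and 2 were lower (6.06%, against 14.1%). Over the genes measured on both arrays, 7 members were 1.5-fold higher (21.9%, against 16.9%) and 2 were lower (6.25%, against 14.1%). These shares rest on single-digit counts. The median difference was 0.34 over the 33 members and 0.07 over all measured genes, whose interquartile range was -0.32 to 0.45. Of the members, 25 lay above 0 (75.8%) and 8 below, and all measured genes leaned the same way, with 55.8% above 0. The 32 members measured on both arrays had a median of 0.32, with 24 above 0 (75%, against 55.6% of genes measured on both). Centring on the median of all genes left the members' counts at 2-fold as they were, while all genes turned from 509 higher and 412 lower to 408 higher and 520 lower. In a culture, fewer cells of a type and less RNA per cell cannot be told apart.

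**Figure D1:**
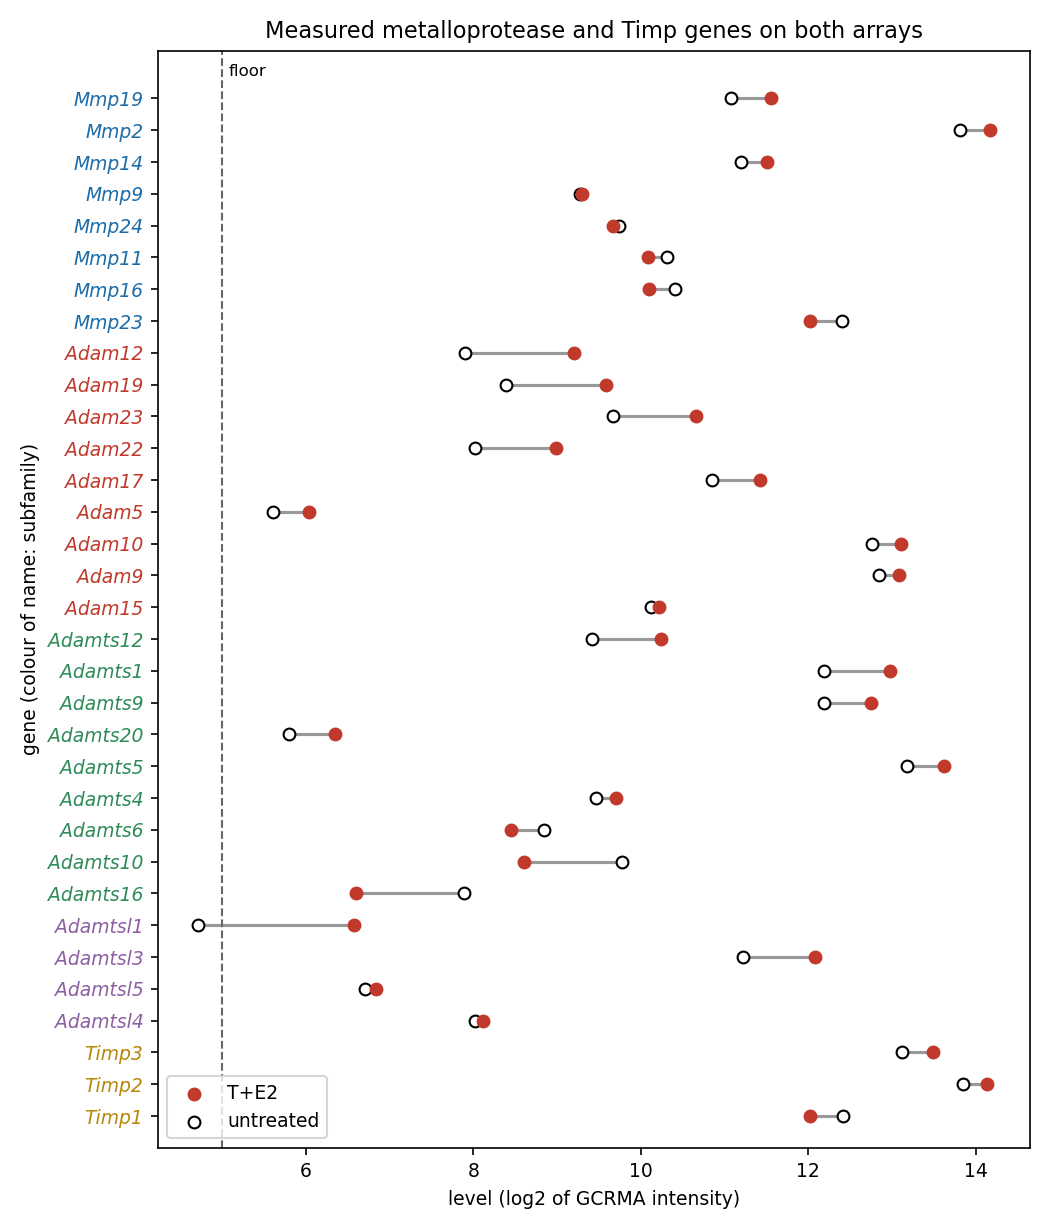
Level (log2 of GCRMA intensity) of the 33 measured genes with T+E2 (filled red points) and in untreated cells (open points), joined by a line, 1 array each, with the floor of 5 dashed and genes grouped by subfamily and ordered by difference. Levels are not comparable between genes, since their probes differ, and the widest gaps to the right are Adam12, Adam19 and Adamtsl1, and the widest to the left Adamts10 and Adamts16.

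The Adam subfamily held 2 of the 3 higher members (2 of 9 measured, against 4.96% of all genes). Its 9 measured genes lay above 0 (55.8% of all genes did). However, Adam15 turned to -0.23 with the mean of all its probe sets, 2 of which were under the floor on both arrays and entered unraised. Adam12, which encodes meltrin alpha, a protease of mesenchymal and muscle precursor cells, had an intensity of 590 with T+E2 and 240 in untreated cells (2.46-fold, log2 difference 1.30). Its other probe set was at 137 with T+E2 and 16.3 in untreated cells, where it lay under the floor, a difference of at least 2.10. Both probe sets of Adam12 thus stood higher with T+E2. Adam19, which encodes meltrin beta, a sheddase of neuregulins, had an intensity of 771 with T+E2 and 335 in untreated cells (2.30-fold, 1.20). The second Adam19 probe set was at 456 with T+E2 and 118 in untreated cells (1.94), so the reported value is the smaller of the pair.

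Adam22 and Adam23, which encode catalytically inactive members that bind Lgi proteins at synapses, came just short of 2-fold. Adam22 was at 507 with T+E2 and 259 in untreated cells (1.96-fold, 0.97), on 1 measured probe set. Adam23 was at 1617 with T+E2 and 815 in untreated cells (1.98-fold, 0.99), also on 1. For both genes, the difference lay above that of over 94% of measured genes (94.5% for Adam22 and 94.9% for Adam23). The mean of all probe sets, the others under the floor on both arrays, gave 0.49 for Adam22 and 0.67 for Adam23.

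The broadly expressed sheddases differed less. Adam17, which encodes the tumour necrosis factor convertase, was at 2748 with T+E2 and 1851 in untreated cells (0.57), with 2 probe sets on the same side. Adam10, which encodes the main sheddase of Notch receptors and cadherins, was at 8788 with T+E2 and 6950 in untreated cells (0.34), and its 3 measured probe sets ranged from 0.34 to 0.82. Adam9 stood at 8682 with T+E2 and 7371 in untreated cells (0.24). Adam15 differed by 0.09, and Adam5, better known from the testis and close to the floor, by 0.44. None of these 5 genes reached 1.5-fold, and neither did 7056 of the 10267 measured genes. The Adam median was 0.57, against 0.50 for Adamtsl and 0.44 for Adamts. The subfamilies overlapped, their order changed with the mean of all probe sets (Adam 0.46, Adamtsl 0.48), and no difference between them was tested.

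Adam19 is the 2-fold member shown here with its promoter, beside Adam22, because both windows hold letters of elements that steroid receptors or AP-1, the Fos and Jun factor, can bind. RefSeq promoter windows (GRCm38.p6) were matched for 20 of the 33 measured members, 23 windows in all, and the 250 bases before each start were searched on both strands. The searches were for TGAGTCA (AP-1), AGAACA (a single arm of an androgen response element) and AGGTCA (a single arm of an estrogen response element), which do not overlap one another in the windows printed. Capitals mark the matched letters. Adam19 has 3 annotated starts, and the first and the second are shown. The third Adam19 window held none of the searched letters. For Adam12, Adamtsl1, Adamts10 and Adamts16, no window was matched, so Adam19 was the only 2-fold member searched. The first Adam19 window lies at chr11:46054252-46054501 (plus strand) and holds TGACCT, the reverse complement of AGGTCA, beginning 141 bases before the start. The second lies at chr11:46055734-46055983 (plus strand) and holds TGAGTCA beginning 131 bases before the start. The Adam22 window lies at chr5:8368161-8368410 (minus strand) and holds TGACCT beginning 228 bases before the start.
Adam19 first start: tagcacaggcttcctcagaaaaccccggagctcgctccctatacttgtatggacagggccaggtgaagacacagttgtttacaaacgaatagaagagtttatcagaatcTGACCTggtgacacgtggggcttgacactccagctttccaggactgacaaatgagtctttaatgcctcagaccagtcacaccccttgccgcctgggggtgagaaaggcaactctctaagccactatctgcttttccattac
Adam19 second start: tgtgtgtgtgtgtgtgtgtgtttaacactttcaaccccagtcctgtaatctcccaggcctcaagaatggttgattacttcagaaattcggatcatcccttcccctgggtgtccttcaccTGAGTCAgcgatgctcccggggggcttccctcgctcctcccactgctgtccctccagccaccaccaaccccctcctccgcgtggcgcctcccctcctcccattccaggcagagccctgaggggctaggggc
Adam22: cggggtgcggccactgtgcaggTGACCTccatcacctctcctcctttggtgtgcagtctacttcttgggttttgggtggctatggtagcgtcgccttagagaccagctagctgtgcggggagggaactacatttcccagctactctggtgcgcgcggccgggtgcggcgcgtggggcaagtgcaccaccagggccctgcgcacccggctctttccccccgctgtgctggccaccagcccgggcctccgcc

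The matches were no more than a description of these windows. TGAGTCA stood in 1 of the 23 member windows, that of Adam19, and in 4.46% of all 32851 windows. AGAACA stood in 3 windows of the family, 1 of Mmp11 and the overlapping pair of Mmp23, both genes below 0 in their difference, and in 16.1% of all windows. AGGTCA stood in 3 windows, of Adam19, Adam22 and Adamtsl5, and in 14.0% of all windows.

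The Adamts subfamily lay on both sides of 0. None of its 5 measured proteoglycan-cleaving genes reached 2-fold and only Adamts1 reached 1.5-fold (17.1% of all measured genes were at least 1.5-fold higher). The 3 members below 0 were Adamts16, Adamts10 and Adamts6. Adamts1, which cuts versican and aggrecan, had an intensity of 8068 with T+E2 and 4663 in untreated cells (1.73-fold, 0.79). The aggrecanase gene Adamts5 was at 12552 with T+E2 and 9265 in untreated cells (0.44), and its 4 probe sets all stood higher, by 0.26 to 0.68. Adamts4, also an aggrecanase gene, differed by 0.24 on 833 with T+E2 and 704 in untreated cells. The 5 genes, Adamts9 and Adamts20 included, had a median of 0.56 and lay above 0 on the probe sets used.

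Adamts9 gave conflicting probe sets. The probe set with the higher signal was at 6861 with T+E2 and 4663 in untreated cells (0.56). A second was at 16.0 with T+E2, under the floor, and 90.2 in untreated cells, a difference of -1.495 against the floor and so at least that far. The mean of all its probe sets, with values under the floor left as they were, was -0.84. The direction for Adamts9 thus depends on the probe set. Adamts20, the gene mutated in belted mice, stood close to the floor and differed by 0.56. Adamts12, whose product cuts cartilage oligomeric matrix protein, was at 1211 with T+E2 and 684 in untreated cells (1.77-fold, 0.82), on 1 measured probe set. Its mean over both probe sets, the second under the floor on both arrays, was 0.42.

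The lower Adamts genes were about as far from 0 as the higher Adam genes. Adamts16 had an intensity of 97.1 with T+E2 and 238 in untreated cells (-1.29), on its only measured probe set. Adamts10, whose product binds fibrillin and is needed for microfibrils, was at 390 with T+E2 and 876 in untreated cells (-1.17), again on a single measured probe set. With the mean of both Adamts10 probe sets, the second under the floor on both arrays, the difference was -0.57. Adamts6, the closest relative of Adamts10, was at 351 with T+E2 and 461 in untreated cells (-0.40). The second Adamts6 probe set was at 6.08 with T+E2, under the floor, and 50.3 in untreated cells, on the same side. With the mean of both, Adamts6 stood at -1.72, past 2-fold, but the 6.08 entered that mean without being raised to the floor. The floored differences of its 2 probe sets were -0.40 and -0.65. Both genes of the Adamts6 and Adamts10 pair thus lay below 0.

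Adamtsl genes, without a protease domain, split into 2 that differed and 2 that hardly did. Adamtsl1, which encodes punctin, was at 95.3 with T+E2 and 26.2 in untreated cells, where it lay under the floor, so it was at least 2.98-fold higher (at least 1.57). A second Adamtsl1 probe set lay under the floor on both arrays, at 4.70 with T+E2 and 18.9 in untreated cells, the opposite order. Adamtsl3, a close relative of punctin, was at 4328 with T+E2 and 2388 in untreated cells (1.81-fold, 0.86). Adamtsl4, whose product binds fibrillin microfibrils, differed by 0.09 and Adamtsl5 by 0.14.

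**Figure D2:**
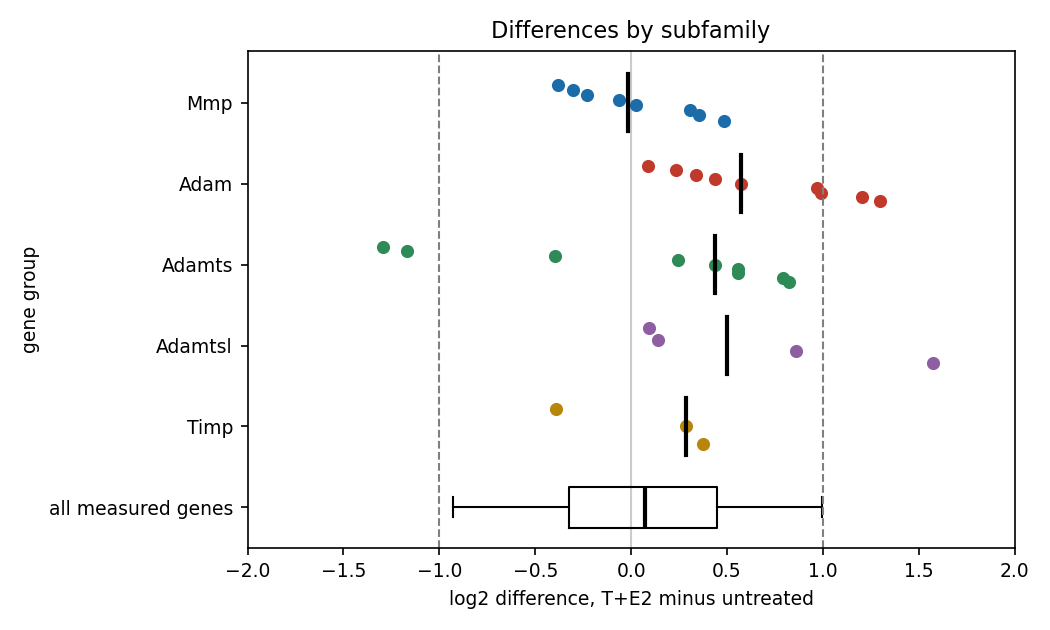
Log2 difference (T+E2 minus untreated) of each measured gene by subfamily, with the subfamily median as a black bar, above a box of all 10267 measured genes (quartiles, whiskers at the 5th and 95th percentiles). Dashed lines mark 2-fold. All 9 Adam points lie right of 0, and no Mmp or Timp point passes a dashed line.

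No Mmp gene reached 1.5-fold, and neither did 7056 of the 10267 measured genes. Of 8 measured Mmp genes, 4 lay above 0 and 4 below, so the median of -0.02 is that of differences on both sides. Mmp2, which encodes gelatinase A, was at 18447 with T+E2 and 14413 in untreated cells (0.36), and its 2 probe sets stood on the same side. Mmp14, which encodes the membrane-type protease that activates pro-Mmp2, was at 2903 with T+E2 and 2344 in untreated cells (0.31), with 3 probe sets from 0.31 to 0.89. Mmp19 was at 3019 with T+E2 and 2156 in untreated cells (0.49), the largest Mmp difference. These 3 genes stood slightly higher with T+E2.

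Mmp9, which encodes gelatinase B and is abundant in leukocytes, was at 630 with T+E2 and 618 in untreated cells (0.03), and its second probe set lay on the other side (-0.41). Of the other membrane-type genes, Mmp16 was at 1100 with T+E2 and 1357 in untreated cells (-0.30), and Mmp24 differed by -0.06. Mmp11, which encodes stromelysin 3, a product of stroma, was at 1090 with T+E2 and 1277 in untreated cells (-0.23). Mmp23, which encodes a protease without the usual hemopexin domain, was at 4161 with T+E2 and 5422 in untreated cells (-0.38), with both probe sets lower.

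The inhibitors also stayed within 1.5-fold, as did most measured genes (7056 of 10267). Timp1, a secreted inhibitor that growth factors and cytokines induce in many cells, was at 4170 with T+E2 and 5475 in untreated cells (-0.39), on 1 probe set. Timp3, which is held in the matrix and also blocks Adam17 and the aggrecanases, was at 11535 with T+E2 and 8907 in untreated cells (0.37), and its 4 probe sets stood higher by 0.18 to 0.43. Timp2, which takes part in the activation of pro-Mmp2 by Mmp14, was at 18013 with T+E2 and 14788 in untreated cells (0.28). Of the 6 Timp2 probe sets, 5 stood higher with T+E2 and 1 lower, over a range of -0.28 to 1.66. The lower Timp2 probe set was also a strong one, at 11477 with T+E2 and 13956 in untreated cells. On the probe sets used, Mmp2, Mmp14 and Timp2, which act together at the cell surface, differed by 0.28 to 0.36. These differences lay above those of 64.4% of measured genes for Timp2, 66.1% for Mmp14 and 69.6% for Mmp2.

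Where a member had more than 1 measured probe set, the sets mostly lay on the same side. This held for 12 of 15 such genes, and the exceptions were Mmp9, Adamts9 and Timp2. The same count was not made over all genes, so whether 12 of 15 is usual on these arrays is not known. Over the 4537 genes of the array with several measured probe sets, the median SD between them was 0.22, so differences of that size are within the disagreement of probes for a gene.

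**Figure D3:**
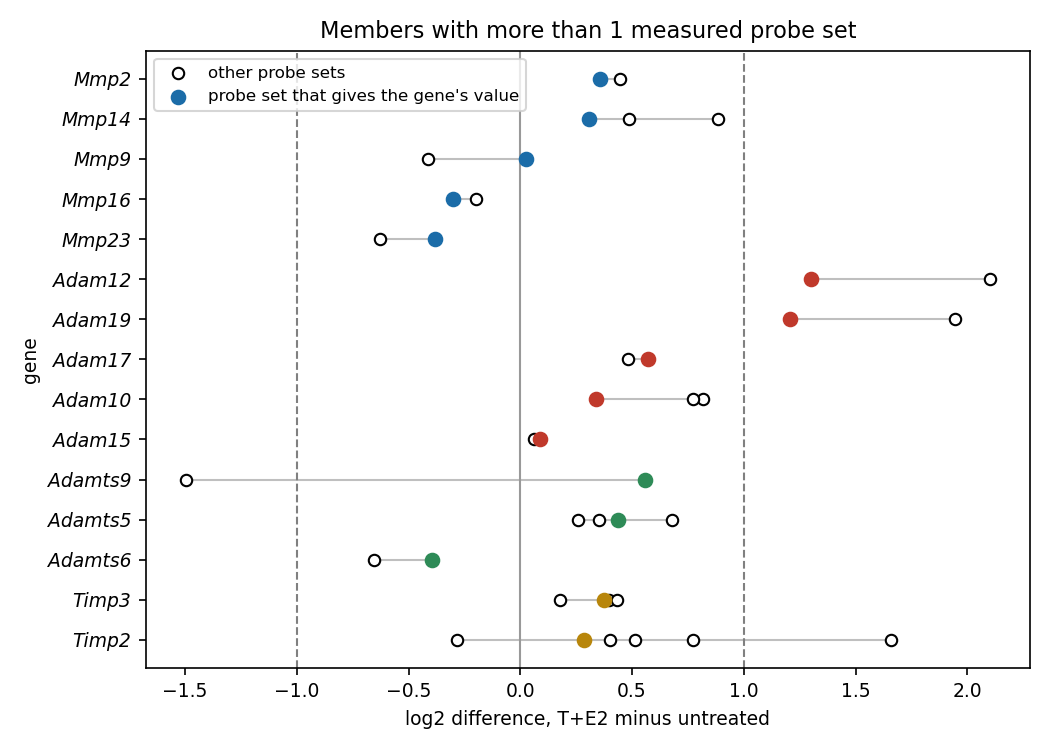
Log2 difference (T+E2 minus untreated) of each measured probe set for the 15 members with more than 1, with values floored at 5. The filled point gives the gene's value and open points are its other probe sets. Adam12 and Adam19 lie right of the 2-fold line on both probe sets, while Adamts9 spans -1.495 to 0.56.

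Longer genes tended to stand higher with T+E2. Genomic span is the length of a gene from first to last base, and many members are long. The median span was 50.1 kb over the measured members and 24.4 kb over all measured genes. Across the 33 members, log10 span and the difference had a Pearson correlation of 0.43 and a Spearman correlation of 0.49, against a Pearson correlation of 0.36 across 10250 genes. These are correlations across genes on the same arrays, and genes are not independent replicates. The 12 members of 100 kb or more had a median difference of 0.69, against 0.24 for the 21 shorter ones. Over all genes the medians were 0.52 for 1362 genes of 100 kb or more and 0.02 for 8888 shorter genes.

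With the linear trend on span removed, no member stayed at least 2-fold higher on the floored value of the probe set used. Of all 10250 genes with a span, 388 were 2-fold higher. Adam19 (92.8 kb) came to 0.97, Adamtsl1 (915 kb) to 0.93 and Adam12 (342 kb) to 0.83. The value for Adamtsl1 is a minimum, since its untreated level was raised to the floor. The other probe sets of Adam12 and Adam19, with larger differences, were not put through this step. The same step gave 0.67 for Adam23, 0.53 for Adam22, 0.43 for Adamtsl3 and 0.39 for Adamts12. Adamts1, a short gene of 9.29 kb, stood at 0.96 after the step, against 0.79 before it. The genes past 2-fold on the low side kept their place, with Adamts16 at -1.57 and Adamts10 at -1.21. Mmp16 and Adamts6, both long, came to -0.73 and -0.78, and Mmp24 to -0.16. The short genes Timp1, Mmp23 and Mmp11 came to -0.10, -0.06 and -0.06, against -0.39, -0.38 and -0.23 before the step. Median differences after the step were 0.24 for the members and 0.09 for all genes.

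**Figure D4:**
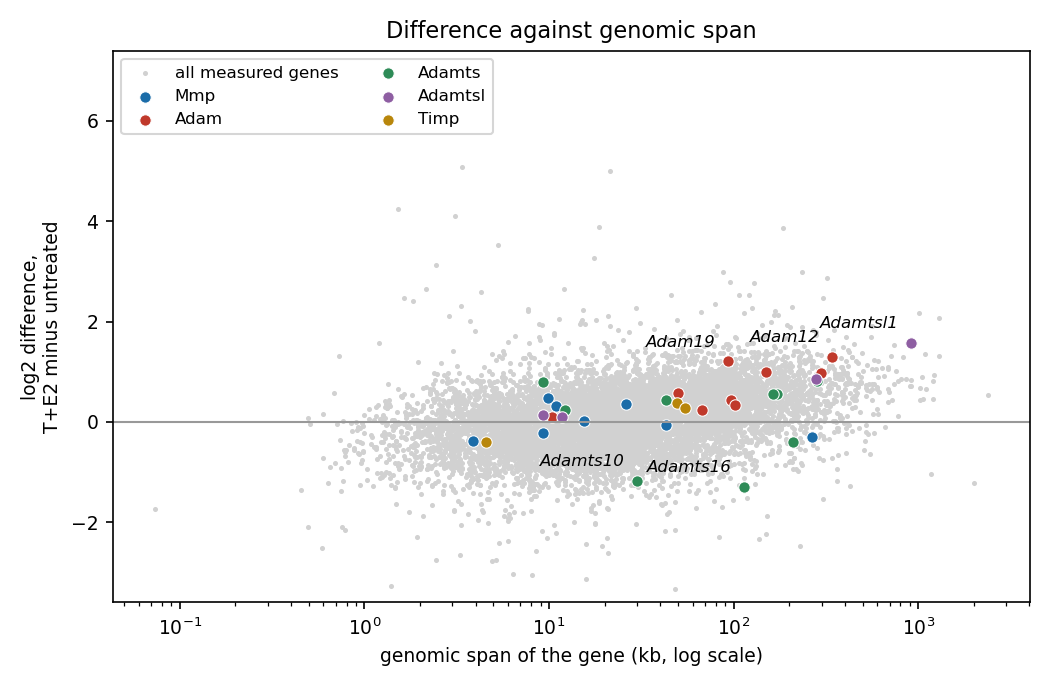
Log2 difference (T+E2 minus untreated) against genomic span in kb (log axis) for all measured genes with a span (grey) and the 33 measured members (coloured by subfamily). Adamtsl1 and Adam12 lie at the long end, where the grey cloud also lies above 0, and Adamts16 and Adamts10 lie under the cloud's centre.

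Genes that act around these proteases were read from 5 lists, beside all measured genes, of which 4.96% were 2-fold higher, 4.01% were 2-fold lower and 55.8% lay above 0. Of 16 membrane regulators, 11 were measured, 1 was at least 2-fold higher and 0 lower, with a median of 0.37. That gene was Lrp1, which encodes a receptor that clears proteases and Timp3 from the cell surface, at 9305 with T+E2 and 4463 in untreated cells (1.06). Of 22 activating and other extracellular proteases, 15 were measured and only Pcsk6, which encodes a furin-like proprotein convertase, passed 2-fold, at 1271 with T+E2 and 512 in untreated cells (1.31). The median of that list was 0.11, with Fap measured only through the T+E2 array. Of the 13 other inhibitors and enhancers on the array, 6 were measured and all lay within 2-fold, with a median of 0.08. Those farthest from 0 were the coagulation inhibitor gene Tfpi (-0.11) and the procollagen proteinase enhancer gene Pcolce2 (0.11).

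Of 29 membrane proteins shed by Adam proteases, 25 were measured, 2 were at least 2-fold higher and 0 lower, with a median of 0.46 (0.07 over all genes) and 22 above 0 (88.0%, against 55.8% of all genes). The 2 were Nrg1, a neuregulin gene, at 151 with T+E2 and 58.9 in untreated cells (1.36), and the receptor gene Notch3 at 1208 with T+E2 and 568 in untreated cells (1.09). Among the 22 above 0, Tgfa (49.3 with T+E2 and 12.2 in untreated cells) was measured only through the T+E2 array. It could therefore lie only on that side. Of 27 matrix substrates, 22 were measured, 3 were at least 2-fold higher and 2 lower, with a median of 0.49. The laminin gene Lama1 was at 590 with T+E2 and 122 in untreated cells (2.28). The versican gene Vcan, whose product several Adamts proteases cut, was at 2726 with T+E2 and 1316 in untreated cells (1.05), and the fibrillin gene Fbn2 differed by 1.003. The lumican gene Lum was at 55.9 with T+E2 and 196 in untreated cells (-1.81), and the elastin gene Eln at 95.8 with T+E2 and 331 in untreated cells (-1.79).

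With the span trend removed, Pcsk6 (0.95), Notch3 (0.97), Lrp1 (0.84), Vcan (0.82), Nrg1 (0.69) and Fbn2 (0.63) came under 2-fold, while Lama1 (1.99), Lum (-1.60) and Eln (-1.90) did not. Cleavage of these proteins was not measured.

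**Figure D5:**
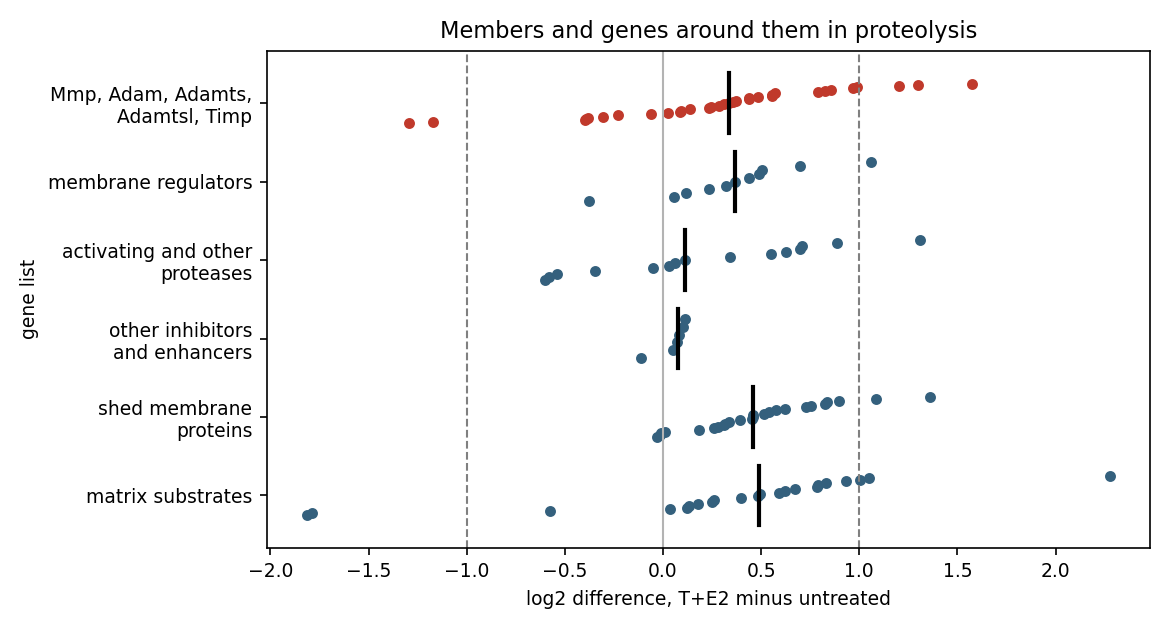
Log2 difference (T+E2 minus untreated) of the 33 measured family members (red) and of the measured genes of 5 related lists (blue), with each list's median as a black bar and 2-fold as dashed lines. Medians run from 0.08 for other inhibitors and enhancers to 0.49 for matrix substrates, against 0.34 for the members.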

How the data were processed

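Gene expression was measured on 1 Affymetrix array per culture. The deposited values are intensity values on a linear scale, 1 per probe set, made by the authors with GCRMA per the submitters' processing notes (version not given in the sources used here). GCRMA corrects background by probe sequence, quantile-normalises and summarises probes, so values of undetected transcripts pile up near a common minimum.

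Of 45101 probe sets, 34945 named 1 gene in the platform annotation (932 named several, 9160 were unlisted and 64 were controls). Symbols were updated through gene identifiers of RefSeq assembly GRCm38.p6. Log2 was taken with no further scaling. For each gene the probe set with the highest mean log2 over both arrays was used. Both arrays were floored at 5 before the difference was formed. With 1 array per group, no test was possible and no p-value was computed.

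Every measured member could be named. From the other lists, members at least 2-fold different were named, or the 2 farthest from 0. The members and lists were chosen with earlier results of these data known. The alternatives were other floors (4, 6 or none), the mean of all probe sets, omission of probe sets with _s_at or _x_at names, centring on the median of all genes, and removal of a linear trend with log10 genomic span that kept the mean. For the mean of all probe sets, log2 values were averaged as deposited and the floor was applied to the averages. Python 3.11.15, numpy 2.4.6 and pandas 2.3.3 were used.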

Additional observations from a re-analysis of the deposited data

How the results depend on the processing

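The limit on every value is the number of arrays, 1 per group. No paired analysis was possible because each group has a single sample. Adam12, Adam19, Adamts10 and Adamts16 lie above 6 on both arrays, so other floors could not change them. With the genomic span trend removed from the floored values of the probe sets used, no member (0) was 2-fold higher, 2 members were 2-fold lower and 4 were at least 1.5-fold lower. Of all 10250 genes with a span, 388 were 2-fold higher and 351 were 2-fold lower after the same removal. The all-gene count at 1.5-fold was not made for it. That removal acts through gene length alone. With the mean of all probe sets, 29 members were measured, 2 were at least 2-fold higher (Adam12 at 2.18 and Adam19 at 1.57) and 1 was lower. The lower gene was Adamts6 (-1.72), while Adamts10 stood at -0.57 and Adamtsl1 and Adamts16 were under the floor. Probe sets under the floor entered these means unraised. The values of Adam12 and Adamts6 therefore lie beyond the floored differences of their own probe sets. Over the 9392 genes measured with that mean, 315 were higher and 400 lower. With no floor, which brought in the 37 unmeasured members, the medians moved to 0.0205 for all members, 0.0288 for Adam, 0.0257 for Adamts and 0.14 for Adamtsl. The Mmp median was 0.01 there and 0.03 with the span trend removed, against -0.02 as reported. A floor of 6 left 2 members at least 2-fold higher, with Adamtsl1 at 0.57. At that floor, 442 of 9891 measured genes were at least 2-fold higher. The counts at 2-fold were as reported with a floor of 4, with centring and without _s_at and _x_at probe sets. A difference was taken to have moved when it changed by more than 0.22, the median SD over probe sets of the same gene. By that measure, 16 of 33 member differences moved with the span trend removed, and 12 of 29 with the mean of all probe sets. At most 2 moved under any other setting.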
